A study of Mus musculus with 8 samples.

Results

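The Zfp genes of the mouse are a large nomenclature class of genes for zinc finger proteins, and their transcripts were followed here in the suprachiasmatic nucleus (SCN), the hypothalamic seat of the master circadian clock. The arrays held 344 genes whose single symbol was Zfp followed by a number, with a closing letter or an l and a number allowed. Members were chosen by that symbol and selected on their mean level over the 8 arrays, which had to reach a log2 signal of 6.82, the 40th percentile of all probe set means. This left 278 members, or 80.8% of the Zfp genes, among 12452 genes that passed the same level, of which they made up 2.23%. The 66 other Zfp genes lay below it. The level that chose the members is given as a description, and no contrast between groups entered the choice.

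The study compared mice without Gpr176 (Gpr176-/-, below KO), which encodes a receptor made by SCN neurons that has no known ligand, with wild-type mice (WT), all of strain C57BL/6J. Animals were held in constant darkness after entrainment to a light-dark cycle, and the SCN was cut out by laser microdissection at circadian time 18 (CT18, subjective night) or 6 (CT6, subjective day). There were 2 arrays, A and B, in each of the 4 groups, KO at CT18, WT at CT18, KO at CT6 and WT at CT6. Each array carried RNA from a separate pool of 10 animals, so that variation between single animals was not measured. The labels give no age or sex and do not say which part of Gpr176 was deleted.

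A zinc finger is a short fold held together by a zinc ion between cysteine and histidine side chains. Most Zfp proteins carry a row of such fingers and bind DNA, and many also carry a KRAB domain, which recruits the corepressor Trim28 and the histone methyltransferase Setdb1 to silence genes and transposable elements. KRAB zinc finger genes have multiplied in tandem and lie in clusters of related neighbours. A smaller branch with fingers of another type, Zfp36 and its relatives, binds AU-rich elements of mRNAs and brings them to the deadenylase complex CCR4-NOT.

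Signals are log2 values of whole-transcript arrays. A call means an adjusted p under 0.05 from limma over all 12452 genes, and ± gives the standard error of the fit. Array medians as deposited lay between 7.34 and 7.39. The arrays of a group correlated at 0.9905 to 0.9932 over the members, a description across genes and not of independent replicates. The first principal component of all genes, with 51.9% of the variance, set the CT18 arrays (scores 7.5 to 9.0) apart from the CT6 arrays (-9.9 to -7.6). The second, with 18.1%, set KO at CT18 A (score -8.86) and WT at CT18 A (9.17) apart from the other arrays. Gpr176 was lower in the KO, at 8.42 and 8.56 in KO and 9.73 and 9.87 in WT at CT18, and at 8.08 and 8.02 in KO and 9.38 and 9.31 in WT at CT6. All 10 SCN neuron markers listed (such as Six6, Lhx1, Vip and Avp) were above the level threshold. The mean log2 level of this list was 10.46 and 10.48 in KO and 10.42 and 10.44 in WT at CT18, against 10.52 and 10.61 in KO and 10.55 and 10.52 in WT at CT6. It was lower in each CT18 pool than in each CT6 pool. Of the 10 genes 8 were called between CT18 and CT6 over both genotypes, where 16.8% of all genes tested were. A change of the markers themselves between CT18 and CT6 enters this mean as well, and its part was not tested. Of the markers of other cells, 7 of 7 for oligodendrocytes, 6 of 6 for astrocytes, 4 of 6 for microglia (Aif1 and Itgam lay below), 5 of 6 for vessels (Kdr below), 5 of 6 for leptomeninges (Lum below) and 4 of 5 for ependyma and tanycytes (Rax below) were above it. The mean log2 level of the leptomeningeal list was 7.33 and 7.32 in KO and 7.67 and 7.36 in WT at CT18, against 7.72 and 7.44 in KO and 7.43 and 7.64 in WT at CT6. That of the oligodendrocyte list was 9.94 and 9.99 in KO and 10.24 and 9.89 in WT at CT18, against 10.24 and 10.03 in KO and 10.18 and 10.30 in WT at CT6. In the same contrast 1 oligodendrocyte, 1 astrocyte, 1 vessel and 2 ependymal and tanycyte markers were called, and 0 of the microglial and leptomeningeal ones. The part of these cells in the results below was not tested. In a dissected tissue, fewer cells of a type and less RNA per cell cannot be told apart.

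Members that differed between night and day are shown first by their promoters. RefSeq (build GRCm38.p6) listed a window from 250 bases before to 50 bases after a start site for 224 of the 278 members, 280 windows in all. Both strands were searched for 5 motifs of clock or cAMP control, the E-box CACGTG, the cAMP response element (CRE) TGACGTCA, its half-site TGACG, which every full CRE also holds, the D-box TTATGTAA and the core of the ROR and REV-ERB element (RRE) TAGGTCA. Of the members called between CT18 and CT6, described further on, 13 of the 15 higher and 11 of the 12 lower at CT18 had windows. The windows of these held 0 E-boxes, against 5.71% of all members' windows and 7.15% of all 32851 windows in the table. A full CRE stood in 2.86% of members' windows and 1.79% of all windows, and the half-site in 31.1% and 20.8%. The D-box stood in 0.357% of all members' windows and 0.938% of all windows, and the RRE core in 3.21% and 2.61%. In the 14 windows of members higher at CT18, the half-site stood in 21.4% (Zfp219, Zfp511 and Zfp846), the RRE core in 7.14% (Zfp219), and the full CRE and the D-box in 0%. In the 13 windows of members lower at CT18, the half-site stood in 30.8% (Zfp330, Zfp451, Zfp655 and Zfp874a), the full CRE and the D-box in 7.69% each (both Zfp874a), and the RRE core in 0%. The median GC content was 56.2% in members' windows and 52.7% in all windows. These matches describe letters in a window and nothing about a factor's binding.

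4 windows are printed, in lower case with full E-box, CRE, D-box or RRE matches in capitals. Zfp618 and Zfp869 are the member with the largest rise at CT18 and the one with the largest fall among those with a window. Zfp219, a second start site, and Zfp874a are the called members with a full motif. The windows are chr4:62965317-62965616 (plus strand), chr8:69716853-69717152 (minus strand), chr14:52019664-52019963 (minus strand) and chr13:67451575-67451874 (minus strand).
Zfp618: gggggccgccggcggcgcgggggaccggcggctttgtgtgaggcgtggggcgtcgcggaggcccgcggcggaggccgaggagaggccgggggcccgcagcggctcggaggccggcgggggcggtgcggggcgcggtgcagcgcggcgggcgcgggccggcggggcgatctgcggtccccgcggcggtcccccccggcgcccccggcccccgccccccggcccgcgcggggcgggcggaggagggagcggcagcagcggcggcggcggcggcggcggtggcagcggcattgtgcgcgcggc
Zfp869: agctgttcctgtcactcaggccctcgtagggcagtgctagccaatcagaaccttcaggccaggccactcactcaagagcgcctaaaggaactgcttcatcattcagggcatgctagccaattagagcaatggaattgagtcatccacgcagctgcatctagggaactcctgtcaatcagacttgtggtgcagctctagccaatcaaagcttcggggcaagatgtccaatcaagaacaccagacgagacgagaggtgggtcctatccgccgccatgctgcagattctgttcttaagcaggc
Zfp219: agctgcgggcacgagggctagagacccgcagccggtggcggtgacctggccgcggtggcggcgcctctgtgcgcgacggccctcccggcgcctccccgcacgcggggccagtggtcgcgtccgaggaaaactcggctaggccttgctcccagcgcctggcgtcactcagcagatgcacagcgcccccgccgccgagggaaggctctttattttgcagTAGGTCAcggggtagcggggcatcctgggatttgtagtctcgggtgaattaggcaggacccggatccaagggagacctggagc
Zfp874a: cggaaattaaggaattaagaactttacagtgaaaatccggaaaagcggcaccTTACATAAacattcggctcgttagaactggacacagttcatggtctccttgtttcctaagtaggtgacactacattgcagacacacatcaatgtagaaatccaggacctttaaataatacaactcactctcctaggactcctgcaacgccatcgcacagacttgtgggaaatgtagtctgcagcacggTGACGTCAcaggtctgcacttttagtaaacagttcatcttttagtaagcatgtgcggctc
The windows of Zfp618 and Zfp869 held none of the full motifs. In Zfp219 the RRE core began 33 bases before the start site. In Zfp874a a CRE began 10 bases and a D-box, on the other strand, 198 bases before it.

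The levels of the members ran from 6.84 to 11.97 with a median of 8.16, where all genes tested had a median of 8.54 and a maximum of 14.01. The highest was Zfp706, needed for mouse embryonic stem cells to leave self-renewal, at 12.01 and 11.97 in KO and 11.98 and 12.01 in WT at CT18, and at 11.86 and 11.95 in KO and 12.03 and 11.93 in WT at CT6. Its KO pools at CT6 lay below the pools of both CT18 groups, and its WT pools at CT6 lay on either side of them. Next came Zfp207, which encodes the spindle protein BuGZ, with a mean of 11.08, and Zfp971 with 10.73. Only 12 members lay at 10 or above, 35 between 9 and 10, 111 between 8 and 9, and 120 under 8. Just inside the threshold lay Zfp697 (6.84), Zfp560 (6.84) and Zfp974 (6.88), and just outside it Zfp568 (6.80), Zfp54 (6.77) and Zfp160 (6.76). In 275 members the mean of each of the 4 groups was above the threshold, and the 3 others were Zfp974, Zfp560 and Zfp697. The SD between arrays of a group had a median of 0.0724 over the members (0.0152 to 0.304) and 0.0628 over all genes tested. Zfp442 had the widest spread, at 7.12 and 7.01 in KO and 7.48 and 6.96 in WT at CT18, and at 6.78 and 7.45 in KO and 7.10 and 7.06 in WT at CT6.

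**Figure D1:**
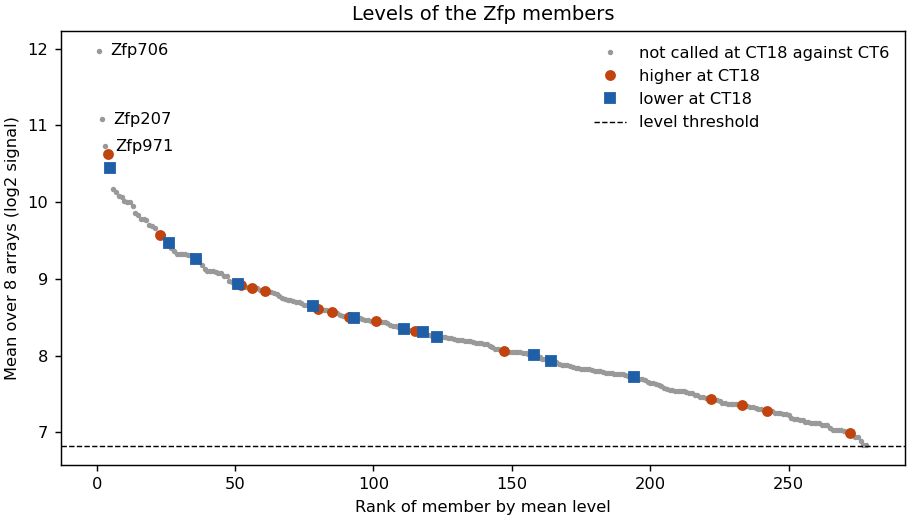
Mean log2 signal over 8 arrays (vertical axis) of the 278 members against their rank (horizontal axis). Circles and squares mark members called higher or lower at CT18 than at CT6, which lie from rank 4 (Zfp462) to rank 272 (Zfp428), and the dashed line is the level threshold of 6.82.

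Between subjective night and day, over both genotypes, 27 of 278 members were called, 15 higher and 12 lower at CT18. This was 9.71% of the members, where 16.8% of all genes tested were called. The members higher made up 5.40% against 10.0% of all genes, and those lower 4.32% against 6.79%. The changes were small, from 0.14 (Zfp804a) to 0.42 (Zfp618) in size on the log2 scale. By 1.5-fold or more 0 of 278 members changed and 113 of all 12452 genes tested, so such changes were rare in both. The median difference was 0.0161 over the members and 0.0104 over all genes. By level, 6 of 120 members under 8 were called (5.00%, against 11.5% of all genes there), 16 of 111 between 8 and 9 (14.4% against 19.6%), 3 of 35 between 9 and 10 (8.57% against 21.5%), 2 of 10 between 10 and 11 (20% against 17.8%), and 0 of 2 above. Without KO at CT18 B the count was 14 in place of 27 (8 higher, 6 lower), and without WT at CT6 B it was 15 (9 and 6). The split also turned on single arrays, with 6 higher and 12 lower without KO at CT6 A, 7 and 12 without WT at CT18 A, 11 and 13 without WT at CT6 A, 11 and 7 without WT at CT18 B, and 19 and 7 without KO at CT6 B. With no filter on level it was 9 and 11. Neither direction thus led in all of these fits. Fewer of all genes tested were also called in each of these fits than in the main fit.

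**Figure D2:**
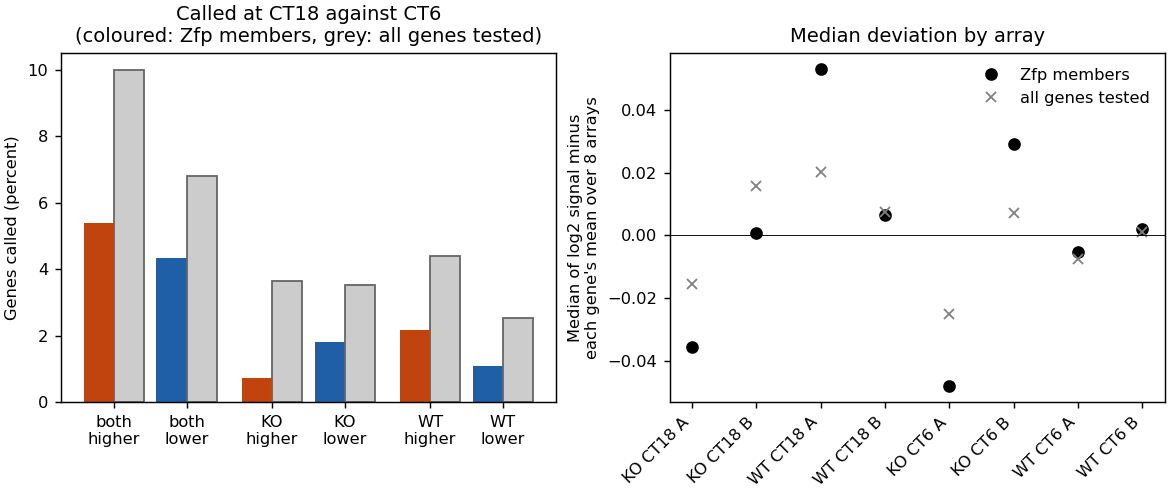
Left, percent of genes called higher or lower at CT18 than at CT6 (vertical axis, from 0) among the Zfp members (coloured) and all genes tested (grey), over both genotypes and in KO and WT. Right, the median over genes of the log2 signal minus each gene's mean over 8 arrays, for members (circles) and all genes tested (crosses), where the members of WT at CT18 A lie highest (0.0531) and those of KO at CT6 A lowest (-0.0482).

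The largest rise was that of Zfp618, whose human counterpart binds the chromatin protein UHRF2. It stood at 9.12 and 9.08 in KO and 9.11 and 9.22 in WT at CT18, against 8.70 and 8.71 in KO and 8.74 and 8.69 in WT at CT6. Each of the 4 night pools lay above each of the 4 day pools, and the rise of 0.42 ± 0.0406 (adjusted p = 0.000123) equals 1.34-fold. Zfp804b followed, a relative of Zfp804a, whose human counterpart has been linked to schizophrenia. It stood at 8.52 and 8.60 in KO and 8.69 and 8.63 in WT at CT18, against 8.31 and 8.21 in KO and 8.33 and 8.32 in WT at CT6, without overlap (0.31 ± 0.0413, adjusted p = 0.000873). Zfp804a itself rose less, by 0.14 ± 0.0409 (adjusted p = 0.0453), with overlapping pools, and its call was lost without any 1 of 7 arrays, all but WT at CT6 A (highest adjusted p 0.140).

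Zfp219, a partner of Sox9 in mouse cartilage cells, stood at 8.33 and 8.48 in KO and 8.55 and 8.53 in WT at CT18, against 8.10 and 8.20 in KO and 8.26 and 8.17 in WT at CT6. The night pools lay above the day pools, and the rise was 0.29 ± 0.0478 (adjusted p = 0.00315). Zfp354b, a KRAB zinc finger gene also called Kid2, stood at 7.47 and 7.47 in KO and 7.64 and 7.68 in WT at CT18, against 7.28 and 7.29 in KO and 7.33 and 7.35 in WT at CT6. It rose by 0.25 ± 0.0357 (adjusted p = 0.00129), and its KO night pools lay below its WT night pools. Zfp428 (0.24 ± 0.0449, adjusted p = 0.00655) and Zfp580 (0.23 ± 0.0490, adjusted p = 0.0103) also had all night pools above all day pools. Zfp428 ran from 7.01 to 7.21 at night and from 6.77 to 6.92 by day, and Zfp580 from 8.55 to 8.80 and from 8.36 to 8.53.

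The other rises were those of Zfp229 (0.26), Zfp846 (0.21), Zfp511 (0.19), Zfp551 (0.18), Zfp827 (0.17), Zfp462 (0.17), Zfp961 (0.16) and Zfp236 (0.15), with adjusted p from 0.0213 to 0.0495. Zfp236, Zfp961 and Zfp804a fall outside the rule for named genes and were added after their values were seen. Zfp462, whose human counterpart is mutated in a developmental syndrome, is the called member of highest level, at 10.71 and 10.61 in KO and 10.78 and 10.77 in WT at CT18, and at 10.49 and 10.58 in KO and 10.60 and 10.52 in WT at CT6. Its night and day pools did not overlap. The human counterpart of Zfp827 brings the NuRD remodelling complex to telomeres. Zfp229 spread the most among these, at 7.14 and 7.32 in KO and 7.73 and 7.48 in WT at CT18, against 6.93 and 7.20 in KO and 7.24 and 7.25 in WT at CT6, so that its night and day pools overlapped.

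The largest fall was that of Zfp612, at 9.24 and 9.33 in KO and 9.32 and 9.32 in WT at CT18, against 9.62 and 9.65 in KO and 9.53 and 9.76 in WT at CT6. Each night pool lay below each day pool (-0.34 ± 0.0533, adjusted p = 0.00241, 0.791-fold). Zfp869 stood at 8.12 and 8.32 in KO and 8.21 and 8.20 in WT at CT18, against 8.50 and 8.58 in KO and 8.39 and 8.50 in WT at CT6. Its pools did not overlap either (-0.28 ± 0.0519, adjusted p = 0.00577). Zfp451 encodes a ligase for the small modifier SUMO. It stood at 8.49 and 8.44 in KO and 8.59 and 8.57 in WT at CT18, against 8.79 and 8.89 in KO and 8.75 and 8.71 in WT at CT6, again without overlap (-0.26 ± 0.0399, adjusted p = 0.00199). Zfp938, at a mean of 10.45 among the 5 members of highest level, fell by 0.24 ± 0.0409 (adjusted p = 0.00406), with 10.40 and 10.41 in KO and 10.29 and 10.22 in WT at CT18, against 10.52 and 10.63 in KO and 10.55 and 10.57 in WT at CT6.

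Zfp330 encodes the nucleolar protein Noa36. It stood at 7.89 and 7.79 in KO and 7.94 and 7.94 in WT at CT18, against 8.34 and 8.15 in KO and 7.95 and 8.08 in WT at CT6. Its lowest day value lay just above its highest night value (-0.24 ± 0.0530, adjusted p = 0.0135), and the call was lost without WT at CT6 B or KO at CT18 B (highest adjusted p 0.0548). Further falls were those of Zfp941 (-0.25), Zfp655 (-0.20), Zfp939 (-0.19), Zfp874a (-0.18), Zfp719 (-0.16), Zfp287 (-0.16) and Zfp945 (-0.15), with adjusted p from 0.00646 to 0.0461. Zfp655 was even across pools, at 8.38 and 8.39 in KO and 8.39 and 8.40 in WT at CT18, against 8.55 and 8.65 in KO and 8.54 and 8.64 in WT at CT6. Zfp874a, also listed as Rslcan15, ran from 7.52 to 7.75 at night and from 7.76 to 7.90 by day.

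Of the 27 called members, 10 kept the call under each of the alternatives in which they were tested, among 16 run: Zfp618, Zfp804b, Zfp219, Zfp354b, Zfp428, Zfp580, Zfp612, Zfp869, Zfp451 and Zfp938. Each of the other 17 lost it in at least 1, and all 17 did when KO at CT18 A and WT at CT18 A were left out together (adjusted p 0.0563 to 0.306). Leaving out 1 array cost between 6 calls (WT at CT6 A, adjusted p 0.0509 to 0.149) and 13 calls (KO at CT18 B, 0.0546 to 0.133, and WT at CT6 B, 0.0503 to 0.140). The other 5 arrays cost 8 (KO at CT18 A, up to 0.146), 8 (KO at CT6 B, up to 0.110), 11 (WT at CT18 A, up to 0.143), 11 (WT at CT18 B, up to 0.135) and 12 calls (KO at CT6 A, up to 0.129). Counted without a test, the 4 night pools lay above the 4 day pools in 21 members (7.55%, against 12.6% of all genes) and below them in 16 (5.76%, against 8.30%).

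**Figure D3:**
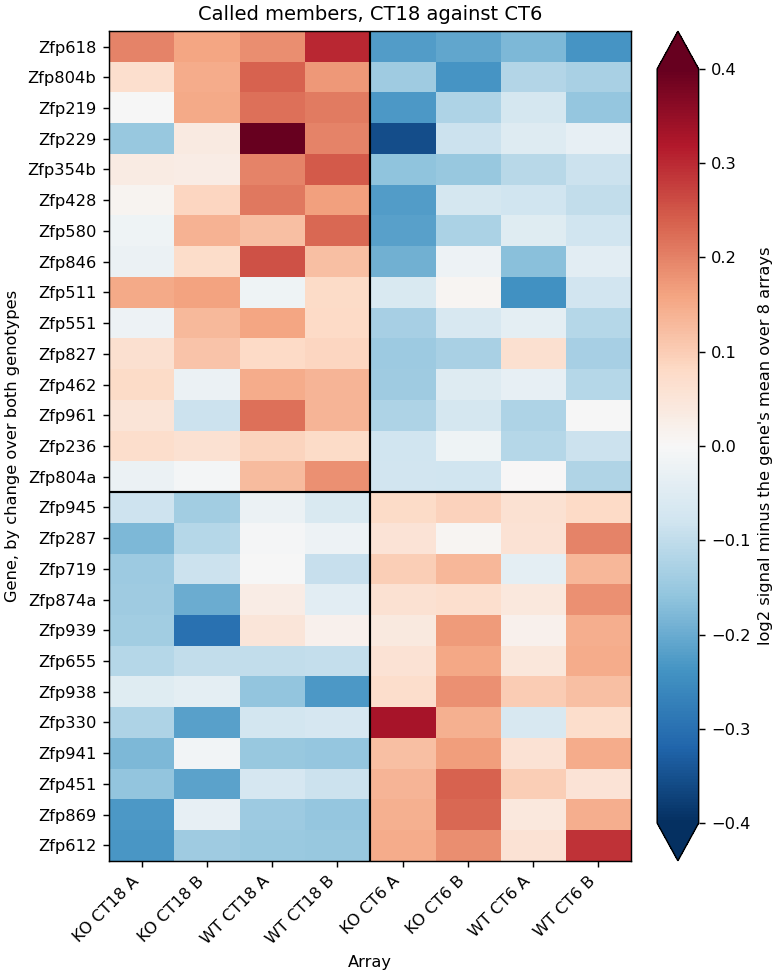
Colour gives the log2 signal minus the gene's mean over 8 arrays for the 27 called members (rows, ordered by the change over both genotypes) in the 8 arrays (columns, CT18 left of the vertical line and CT6 right of it). The 15 members above the horizontal line rose at CT18, led by Zfp618, and the 12 below it fell, with Zfp612 at the bottom.

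Within the KO, 7 members were called between CT18 and CT6 (2.52%, against 7.16% of all genes), 2 higher (0.719% against 3.63%) and 5 lower (1.80% against 3.53%). Within WT, 9 were called (3.24% against 6.94%), 6 higher (2.16% against 4.40%) and 3 lower (1.08% against 2.54%). No array is shared by these comparisons, but both use the same estimate of each gene's spread, so the lists are not independent. Zfp618 (0.39 in KO, 0.45 in WT), Zfp804b (0.30 and 0.33) and Zfp612 (-0.35 and -0.32) were called in both, which is 42.9% of the KO list and 33.3% of the WT list. Zfp330 (-0.41 in KO, -0.07 in WT), Zfp451 (-0.37 and -0.15), Zfp939 (-0.32 and -0.05) and Zfp869 (-0.32 and -0.24) passed in KO. Zfp219 (0.25 in KO, 0.33 in WT), Zfp354b (0.19 and 0.32), Zfp428 (0.20 and 0.28), Zfp72 (-0.02 and 0.25), Zfp938 (-0.17 and -0.30) and Zfp941 (-0.24 and -0.26) passed in WT. The sign was the same in KO and in WT in 170 of all 278 members. It was so in all 27 called over both genotypes, which their choice by the mean of both changes favours. Neither the overlap of the lists nor the shared sign was counted over all genes, so neither can be set beside such a share. The KO count was 4 without KO at CT6 B or KO at CT18 B, and the WT count was 3 without WT at CT18 A, WT at CT6 A or WT at CT6 B. With the values as deposited the WT split was 10 higher and 1 lower, and with median centring 6 and 0. Of all genes 6.53% and 5.81% were called there, and their split by direction was not counted. The WT median of all genes was 0.0389 and 0.0378 in these fits, against 0.0164 in the main fit. That of the members was 0.0544 and 0.0533, against 0.0266. Zfp618 passed within each genotype whichever array was left out, Zfp451 did so in KO and Zfp354b in WT, and each other gene named here lost its call within a genotype without at least 1 array of that genotype. Zfp72 lost it without any of the 8 arrays (highest adjusted p 0.250) and Zfp941 without 6 of them, all but KO at CT18 A and B (highest 0.229).

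**Figure D4:**
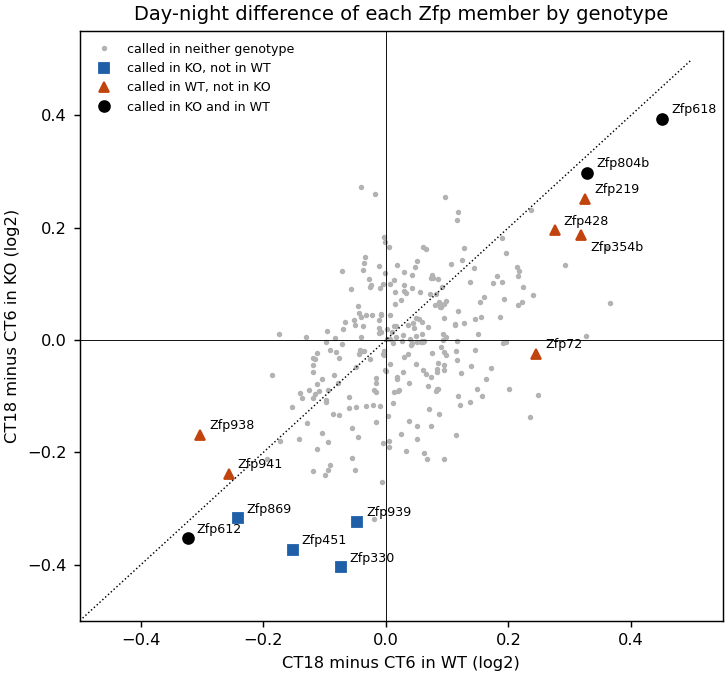
CT18 minus CT6 on the log2 scale in KO (vertical axis) against WT (horizontal axis) for each of the 278 members, with members called in KO, in WT or in both marked and named and the dotted line at equal change. Zfp618, Zfp804b and Zfp612 lie near the line, and Zfp330 and Zfp72 lie farther from it.

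Whether the day-night difference itself differed between genotypes was tested as the interaction, KO change minus WT change. By limma 0 of 278 members passed, as did 0% of all genes, while 17 members (6.12%) had an unadjusted p under 0.05, against 4.86% of all genes. The smallest p among members were those of Zfp330 (-0.33 ± 0.106), Zfp72 (-0.27 ± 0.0877), Zfp583 (-0.25 ± 0.0846), Zfp105 (-0.26 ± 0.0924) and Zfp451 (-0.22 ± 0.0798), each with an adjusted p of 0.944 by limma. Zfp72 stood at 7.47 and 7.58 in KO and 7.79 and 7.70 in WT at CT18, and at 7.52 and 7.57 in KO and 7.54 and 7.46 in WT at CT6. Its KO night pools thus lay below its WT night pools and overlapped the day pools. For Zfp618 the KO change minus the WT change was -0.06, with a 95% interval from -0.24 to 0.13, for Zfp804b -0.03 (-0.22 to 0.15) and for Zfp612 -0.03 (-0.27 to 0.21). These intervals show how large a difference the 8 arrays could have missed.

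In the comparison of KO with WT, 0 of 278 members passed at CT18, at CT6 or over both times, where 1, 1 and 3 of all genes did (0.00803%, 0.00803% and 0.0241%). With eBayes using a trend and robust variances the members called were also 0. At an unadjusted p under 0.05 there were 40 members at CT18 (14.4%, against 12.5% of all genes), 9 at CT6 (3.24% against 4.24%) and 35 over both times (12.6% against 12.0%). The pools of KO and WT did not overlap in 9 members, 5 higher in KO (1.80%, against 2.10% of all genes) and 4 lower (1.44% against 2.13%). The 5 were Zfp971, Zfp512, Zfp764, Zfp64 and Zfp647, and the 4 were Zfp207, Zfp292, Zfp57 and Zfp983, named after their values were seen.

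Zfp57 had the smallest p of the members. It encodes a KRAB zinc finger protein that keeps DNA methylation at imprinted genes in the embryo. Its level was 8.88 and 8.88 in KO and 9.08 and 9.12 in WT at CT18, and 8.74 and 8.86 in KO and 9.05 and 9.08 in WT at CT6. Each KO pool lay below each WT pool, with a difference over both times of -0.24 ± 0.0409 (95% interval -0.34 to -0.15) and an adjusted p of 0.229 by limma, which did not pass. The adjusted p ran from 0.0573 to 0.963 over the alternatives. Zfp647 stood at 7.30 and 7.34 in KO and 7.11 and 7.09 in WT at CT18, and at 7.15 and 7.13 in KO and 7.10 and 7.11 in WT at CT6. The KO pools were the higher ones at both times, by 0.22 at CT18 and 0.04 at CT6 (adjusted p = 0.319 and 0.975). Zfp229 differed by -0.28 ± 0.0745, Zfp354b by -0.12 ± 0.0357 and Zfp764 by 0.13 ± 0.0389 over both times, each with an adjusted p of 0.342.

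**Figure D5:**
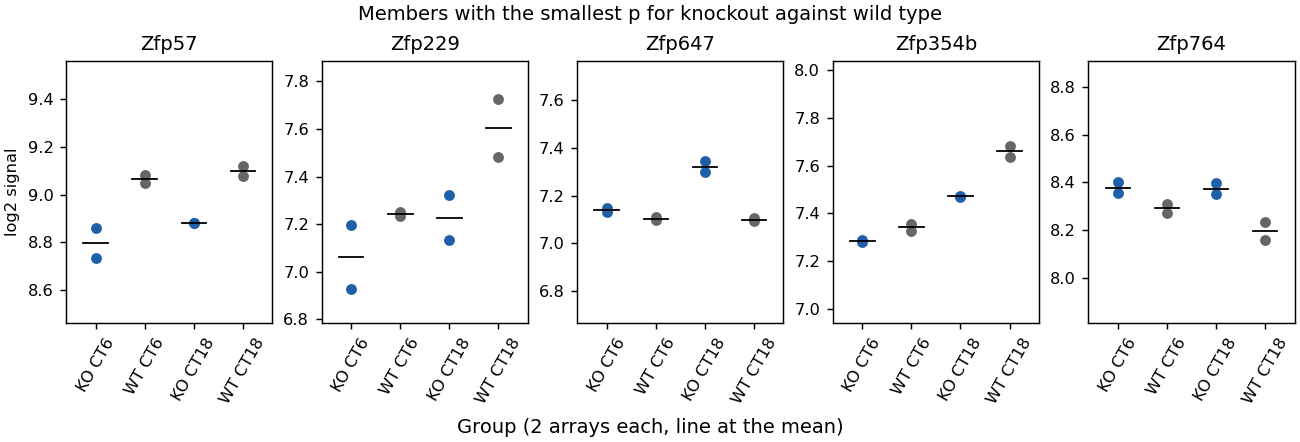
Log2 signal (vertical axes, each spanning the same range) of the 5 members with the smallest p over both times for KO against WT, with a point for each of the 2 arrays of a group and a line at the mean. Zfp57 lies lower in each KO array than in each WT array, and Zfp647 and Zfp764 lie higher.

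At CT18 alone the smallest p were those of Zfp647, Zfp57 (-0.22), Zfp354b (-0.19), Zfp286 (-0.28) and Zfp72 (-0.22), each with an adjusted p of 0.319. At CT6 they were those of Zfp57 (-0.27), Zfp330 (0.23), Zfp593 (0.19), Zfp637 (0.17) and Zfp362 (-0.16), each with 0.975. The median difference over the members at CT18 was -0.0502, where that over all genes was -0.0165, and at CT6 -0.0123 and -0.00604. The members' median deviation by array was -0.0357 in KO at CT18 A and 0.000653 in KO at CT18 B, against 0.0531 in WT at CT18 A and 0.00657 in WT at CT18 B. Without KO at CT18 A and WT at CT18 A the members' median difference at CT18 was -0.00501 and that of all genes 0.00866. Without KO at CT18 A alone the members' median was -0.0299, and without WT at CT18 A alone -0.0256. Among the 20 named genes on each side of Gpr176 in the RefSeq order the single member was Zfp770, at 10.01 and 10.07 in KO and 9.97 and 10.03 in WT at CT18, and at 9.96 and 10.13 in KO and 9.92 and 10.06 in WT at CT6. It differed by 0.05 ± 0.0509 over both times (adjusted p = 0.727).

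Of the mRNA decay branch no member passed in any of the 7 contrasts. Zfp36 itself lay below the threshold, at 6.50 and 6.66 in KO and 6.73 and 6.66 in WT at CT18, and at 6.48 and 6.52 in KO and 6.68 and 6.51 in WT at CT6. Zfp36l1 stood at 8.33 and 8.34 in KO and 8.48 and 8.36 in WT at CT18, and at 8.32 and 8.40 in KO and 8.46 and 8.32 in WT at CT6. Zfp36l2 stood at 9.20 and 9.09 in KO and 9.10 and 9.08 in WT at CT18, and at 9.02 and 9.05 in KO and 9.14 and 9.09 in WT at CT6. The night-day differences of the 2 members were -0.00104 ± 0.0483 and 0.04 ± 0.0399, and neither passed (adjusted p = 0.992 and 0.547). Of the 27 genes listed for the deadenylation and decapping machinery and its regulators, 1 was higher and 2 lower at CT18 over both genotypes (11.1% called, against 16.8% of all genes, with a median of 0.00843 against 0.0104). Btg1 rose (0.23 ± 0.0464, adjusted p = 0.00889), and Tob1 (-0.25 ± 0.0443, adjusted p = 0.00415) and Btg2 (-0.17 ± 0.0443, adjusted p = 0.0275) fell. These 3 encode antiproliferative proteins that bind the CCR4-NOT deadenylase, and 0 of its subunits in the list were called.

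The partners of KRAB zinc finger proteins were listed as well. Of 30 listed genes of heterochromatin silencing 25 were tested, and 2 were higher and 0 lower at CT18 over both genotypes (8.00% called, against 16.8% of all genes, with a median of 0.0405 against 0.0104). They were Rcor1, the scaffold of the CoREST complex (0.22 ± 0.0445, adjusted p = 0.00961), and the histone deacetylase Hdac2 (0.14 ± 0.0423, adjusted p = 0.0499). Trim28 differed by 0.05 ± 0.0365 (adjusted p = 0.440) and Setdb1 by -0.00177 ± 0.0533 (adjusted p = 0.987), and neither passed. Trim28 stood at 9.69 and 9.76 in KO and 9.78 and 9.78 in WT at CT18, and at 9.68 and 9.68 in KO and 9.74 and 9.73 in WT at CT6. No gene of either list passed in a comparison of KO with WT. Set beside the 16.8% of all genes called in this contrast, other zinc finger families gave calls of 11.1% for Zbtb genes (3 higher and 1 lower of 36), 25% for Zkscan (0 and 2 of 8), 0% for Zscan (of 8), 9.09% for Zc3h (1 and 0 of 11), 23.8% for the palmitoyltransferase Zdhhc genes (1 and 4 of 21) and 50% for Zmynd (2 and 0 of 4).

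Members were also followed by their place, since tandem neighbours are often close relatives. In the RefSeq order of protein-coding genes, with at most 2 other genes between neighbours, 107 members lay in 24 runs of 3 or more, 42 in 21 pairs and 129 alone. These runs were defined after values were seen, and no test was made on them. Over both genotypes 6 of the 107 members in the runs were called higher and 3 lower at CT18. Of the 42 in pairs it was 1 and 3, and of the 129 alone 8 and 6. Of all 278 members 5.40% were called higher and 4.32% lower, against 10.0% and 6.79% of all genes. The longest run held 11 members from Zfp84 to Zfp146, of which 0 were called, with differences from -0.14 to 0.17. A run of 7 (Zfp874a, Zfp58, Zfp87, Zfp748, Zfp729b, Zfp729a and Zfp738) had all its differences below 0, from -0.18 to -0.04, with Zfp874a called. These are the differences of the brightest sets, and the other sets of Zfp738 gave -0.13 and 0.02. All differences of a run of 5 (Zfp579, Zfp524, Zfp865, Zfp784 and Zfp580) lay above 0, from 0.04 to 0.23, with Zfp580 called. Some runs of 3 also lay on 1 side of 0. A run of 9, which holds Zfp229 and Zfp983, had a median KO minus WT difference of -0.13 over both times, the lowest among runs of 5 or more, and none of its members passed. Close relatives can share probe sequence, so the values of such neighbours may not be independent. By the rule of a single symbol, 40 probe sets annotated to several genes with a Zfp symbol among them were not used. There were 12 members with more than 1 probe set, none of them among the 27 called. The 2 sets of Zfp788 gave the same night-day difference of 0.01 and the same mean level of 8.60, so they may not be separate measurements. Those of Zfp60 gave 0.08 for the brighter set used and -0.18 for the other. Sets of Zfp558, Zfp664 and Zfp738 also differed in sign, and those of the remaining members with more than 1 set did not.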

How the data were processed

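RNA of the SCN from 8 pools of 10 animals was measured on whole-transcript arrays. RNA was column purified, amplified with a whole-transcript kit and biotin labelled, per the labels' protocols. The authors deposited 1 table of log2 values for 28853 probe sets. Their background correction, summarisation and scaling are unstated in the labels and file headers. Since lower quartiles differed between arrays by up to 0.139, above the limit of 0.1, columns were quantile normalized (limma 3.58.1, R 4.3.3), after which a shift common to most genes could not be seen. The platform annotation gave 21789 probe sets 1 symbol and 1621 several, and 5443 were unnamed here. Entrez numbers of 21698 matched RefSeq (GRCm38.p6). The brightest probe set stood for each of 19938 genes, and 12452 reached the level threshold.

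One limma fit with a mean per group over all 8 arrays (4 residual and 5.58 prior degrees of freedom) gave 7 contrasts, adjusted by Benjamini-Hochberg over all genes tested. The fit was run on simulated arrays with independent noise per gene, which does not cover deviations shared by many genes of an array. The number of arrays limits precision, with a median standard error over members of 0.0677 between 2 groups, 0.0957 for the interaction and 0.0479 where 4 arrays stood on each side. Members and lists were chosen with earlier results of these data known. Genes named were up to 12 rises and 12 falls per contrast among called members, or the 5 smallest p where under 5 were called, the Zfp36 family, members at the ends of the level range and near Gpr176, and called genes of the 2 lists. Alternatives changed normalization, filter, probe sets, variance model, replicate block and arrays. Deviations of same-lettered pools correlated with either sign between groups. Protein features were not analysed here.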

Additional observations from a re-analysis of the deposited data

How the results depend on the processing

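The counts of 0 members in the KO and interaction contrasts stayed at 0 under each of the 16 alternatives. The night-day count over both genotypes, 27, ranged from 14 to 26 when 1 array was left out and was 10 (6 higher, 4 lower) without KO at CT18 A and WT at CT18 A, an alternative chosen after seeing the data. The KO count of 7 ranged from 4 to 9 with 1 array left out, and was 17 with the 60th percentile filter, 13 with trend and robust variances and 2 without both arrays. The WT count of 9 ranged from 3 to 10, and was 5 with no filter, 15 with the 60th percentile filter, 14 with trend and robust variances and 1 without both arrays. The filters change how many genes are tested, and for the others the cause was not tested. The 60th percentile filter left 162 members, and 12.7% of all genes were called in KO and 11.5% in WT. Trend and robust variances gave 9.14% and 9.01% of all genes, against 7.16% and 6.94% in the main fit. No filter on level left 344 members, and 3.17% of all genes were called in WT. With 1 array or both arrays left out, fewer of all genes tested were called in each night-day contrast than in the main fit. Correlations of the A minus B differences between groups were of either sign, from -0.222 to 0.257. No deviation by letter that all groups shared was thus seen. With the replicate letter as a block, the counts were 24 over both genotypes, 8 in KO and 8 in WT. Of all genes 15.6%, 6.26% and 6.14% were called there. Zfp36l1, at -0.00104 over both genotypes, was at 0.0122 with values as deposited, 0.0113 with median centring and from -0.0382 to 0.0361 with 1 array left out. Zfp36l2, KO minus WT over both times, was at -0.00932 and ranged from -0.0356 to 0.0169 with 1 array left out. These 2 genes passed in none of these. Of 43 calls of single genes, 13 were lost with median centring, 7 with values as deposited and 15 with no filter.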
